A study of Ovis aries with 60 samples.

Results

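Genes for mucins, antimicrobial and transport proteins of mucosal surfaces and proteins known from seminal fluid were followed in sperm RNA of 20 F2 rams of a sheep study on paternal diet. The 10 genes were chosen by name: MUC21, DMBT1, CRISP3, MUC1, MUC4, LTF, PIGR, CLU, NPC2 and PTGDS. Of these, 9 had a row among the 28525 genes of the count table, CLU had none under this symbol, and 8 were among the 13577 genes that passed a filter on low counts (a minimum of 15, reached by over 10 libraries). PTGDS did not pass this filter and is given by its values alone. In the study, F0 Polypay rams received a control diet or the same diet with rumen-protected methionine added at 0.22% (1.5 g) from weaning to puberty, and neither the F1 nor the F2 animals were given the supplement. The methionine line holds 10 F2 grandsons of 5 supplemented rams and the control line 10 grandsons of 5 control rams, with 2 grandsons per F0 ram. The F0 rams of the lines were twins of each other, but the labels do not say which were a pair. The study bred 1 F1 ram per F0 ram, so the 2 grandsons of an F0 ram had the same sire. The 10 rams of a line are thus not 10 independent founders. The tests below took the 20 libraries as separate, apart from a diet fit on summed counts of each family. Semen was collected by electroejaculation, washed, treated with a lysis buffer for somatic cells and extracted, and each ram gave 1 library. Libraries are named as in the labels, by the number of the ram followed by T in the methionine line and C in the control line.

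Mucins are large glycoproteins that line wet epithelia, as transmembrane proteins in the case of MUC1, MUC4 and MUC21. DMBT1 and LTF (lactoferrin) are secreted defence proteins, and PIGR carries polymeric IgA and IgM across an epithelium into its secretion. CRISP3, NPC2, PTGDS and CLU (clusterin) are proteins known from epididymal or accessory gland fluid, where NPC2 binds cholesterol, PTGDS is a prostaglandin D synthase that also carries lipids, and CLU is a secreted chaperone. Several of these genes have more than 1 known source: LTF and CRISP3 are also made by neutrophils, and MUC1, MUC4 and MUC21 by stratified squamous epithelium such as that of the prepuce and distal urethra. Mature spermatozoa carry little RNA and are largely silent in transcription, so RNA of epithelial cells or leukocytes in an ejaculate can weigh heavily in a sperm library.

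Counts per library summed to between 805831 and 13137757, which are reads assigned to genes and not reads sequenced. By the range the paper gives, reads sequenced differed far less between libraries, so these totals are not a measure of depth. Levels are given as CPM, a gene's count relative to the library total, with the total scaled by the trimmed mean of M-values (TMM) and scaling factors between 0.362 and 2.54. The label of sperm was checked against marker lists for other cells. Of 30 spermatid markers 20 passed the filter, with PRM1, TSSK6 and ODF2 the highest by median, and their summed level ran from 193 to 6114 CPM, with 312 to 5764 in the methionine line and 193 to 6114 in the control line. Of 32 squamous epithelium markers 24 passed, led by KRT78, KRT4 and PPL, with sums of 438 to 62727 CPM in the methionine line and 371 to 105638 in the control line. Of 33 leukocyte markers 29 passed, with sums of 208 to 7775 CPM and 184 to 31052 CPM in the same order, the highest value being that of SpermRNA350C. Of 13 Sertoli and Leydig cell markers only 4 passed, and these were low throughout, with sums of 14.9 to 43.4 CPM over fewer genes than in the lists above. No marker with a row was at 0 in every library. The mean log2 TMM CPM of the markers that passed served as a score for each of these cell types. The squamous score was 3.58 in SpermRNA485C and 3.82 in SpermRNA382T and from 6.01 to 9.27 in the other 18 libraries, a gap of 38.5% of its range. The summed spermatid markers of these 2 libraries were the highest of all, and the fits and correlations of the genes are also given without them. In bulk RNA, fewer cells of a type and less RNA per cell cannot be told apart.

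MUC21 had the widest range of the genes, 1700-fold over the 20 libraries. It stood between 111 and 35933 CPM in the methionine line, with a median of 16281, and between 38.4 and 65199 CPM in the control line, with a median of 12066. The lowest libraries were SpermRNA485C and SpermRNA382T, and the highest was SpermRNA468C, in which MUC21 took 2.34% of all counts (exact 95% interval 2.33 to 2.35, which covers counting error only). DMBT1 stood between 110 and 18959 CPM in the methionine line (median 6906) and between 36.2 and 21978 CPM in the control line (median 6165). Its 2 lowest libraries were the same as those of MUC21, and its highest was SpermRNA400C. MUC1 ranged from 15 to 3850 CPM (median 1393) in the methionine line and from 37.7 to 4130 CPM (median 1149) in the control line. Without SpermRNA485C and SpermRNA382T, the highest library exceeded the lowest 29.6-fold for MUC21, 15.4-fold for DMBT1 and 22.3-fold for MUC1. The lines overlapped for all 3 genes. In MUC21 SpermRNA468C and SpermRNA400C, at 65199 and 48780 CPM, stood above the highest library of the methionine line.

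CRISP3, a cysteine-rich secretory protein of the epididymis, salivary gland and neutrophil granules, had a wide spread of its own. It lay between 69.1 and 24502 CPM in the methionine line (median 4371) and between 31.7 and 35357 CPM in the control line (median 3264). Among the 18 other libraries it was lowest in SpermRNA426T and SpermRNA500T, at 676 and 693 CPM, and highest in SpermRNA400C, a 52.3-fold range. PIGR ranged from 21 to 7370 CPM in the methionine line (median 623) and from 12.6 to 3078 CPM in the control line (median 1188), and its highest library was SpermRNA372T, with SpermRNA449C and SpermRNA453C next at 3078 and 2975 CPM. NPC2 was found at lower counts, 5 to 423 per library. It ranged from 7.27 to 68.8 CPM in the methionine line (median 29.0) and from 1.66 to 89.6 CPM in the control line (median 30.3), lowest in SpermRNA485C and SpermRNA413C and highest in SpermRNA468C.

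By TMM CPM, MUC4 and LTF had narrower ranges, 10.6-fold and 44.5-fold over the 20 libraries, and other libraries at the bottom. Without SpermRNA485C and SpermRNA382T LTF kept its 44.5-fold range, beside 52.3-fold for CRISP3, 44.3-fold for PIGR and 33.3-fold for NPC2. The other genes then had 29.6-fold or less. These ranges depend on the scaling. By library totals without TMM, LTF ran from 0.413 CPM in SpermRNA400C to 27.3 in SpermRNA413C. That range was wider than the one of NPC2, from 2.58 in SpermRNA485C to 50.1 in SpermRNA475C. MUC21 then ran from 59.8 CPM in SpermRNA485C to 23420 in SpermRNA468C. The values below are again TMM CPM. MUC4 lay between 17.4 and 185 CPM in the methionine line (median 41.7) and between 19.7 and 106 CPM in the control line (median 43.3). SpermRNA485C and SpermRNA382T, lowest for the genes above apart from NPC2, had 53.8 and 48.1 CPM of MUC4, both above its median over all libraries of 43.3. LTF was low throughout, with 5 to 214 counts per library. It ranged from 3.21 to 44.9 CPM in the methionine line (median 7.04) and from 1.01 to 11.8 CPM in the control line (median 7.99), and SpermRNA372T stood above the next highest library, SpermRNA359T at 16.8 CPM. PTGDS had 0 to 31 counts per library and at most 5.04 CPM, reached in SpermRNA359T. It had no count in SpermRNA372T and SpermRNA382T, where the limit that a count of 0 allows, set at 3 counts, is 0.629 and 1.21 CPM, and the other 18 libraries had at least 1 count.

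**Figure D1:**
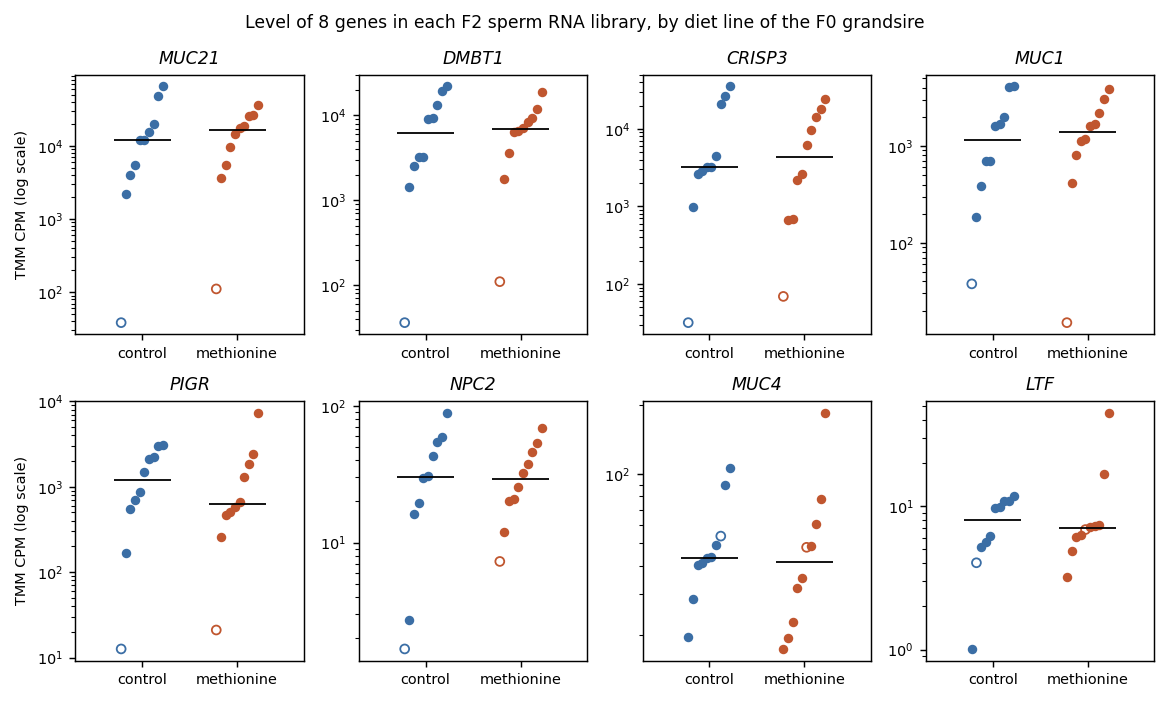
Level of the 8 genes that passed the filter in each library, as TMM CPM on a log axis, in control line rams (blue, n = 10) and methionine line rams (orange, n = 10). Each point is a library, black lines are the medians of a line, and open circles are SpermRNA485C and SpermRNA382T, which sit lowest for MUC21, DMBT1, CRISP3, MUC1 and PIGR and near the middle for MUC4.

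The diet comparison asked whether the lines differed in the grandsons. No difference between lines passed for the 8 genes by edgeR's quasi-likelihood test with Benjamini-Hochberg adjustment over the 13577 genes (adjusted p = 1 for each), and 0% of all genes passed. At an unadjusted p under 0.05 stood 104 genes (0.766%), and 0 of the 8. The share over all genes lies below the 0.05 that evenly spread p-values would give, so the 0 of the 8 carries little information. DESeq2 called 0 genes as well, with 174 at an unadjusted p under 0.05. The median log2 difference, methionine minus control, was -0.03 over the 8 genes and -0.05 over all genes tested. The largest was that of LTF, at 0.58 ± 0.442 (SE), and it was -0.01 without SpermRNA372T. MUC21 differed by -0.23 ± 0.900 (95% interval -2.08 to 1.62), DMBT1 by -0.17 ± 0.815 and CRISP3 by -0.35 ± 0.961 on the log2 scale, and differences within intervals of this width were not detectable among these rams. The estimates of MUC1, MUC4, PIGR and NPC2 lay between -0.10 and 0.12. That of PIGR was -0.66 without SpermRNA372T and that of MUC4 was -0.36 without SpermRNA323T, again with adjusted p = 1. With the 3 scores as covariates the interval of MUC21 narrowed to -0.84 to 0.63, around a difference of -0.10. With the counts of the 2 grandsons of each F0 ram summed, edgeR called 0 of the 8 genes, beside 0% of all genes. The lines were not told apart by the markers either, with 0 of 24 squamous, 0 of 29 leukocyte and 0 of 20 spermatid markers called, and medians of 0.07, -0.66 and 0.21.

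Most of the genes rose with the squamous score. In the edgeR fit of each gene on the score, 6 of 8 rose at an adjusted p of at most 0.05, beside 31.8% of all genes tested. The slope, in log2 fold per unit of the score, was 1.72 ± 0.177 (SE) for MUC21 (adjusted p = 6.51e-08), 1.49 ± 0.176 for DMBT1 (2.97e-07) and 1.36 ± 0.133 for MUC1 (3.94e-08). CRISP3 rose by 1.60 ± 0.268 (adjusted p = 2.02e-05), PIGR by 1.41 ± 0.279 (0.000131) and NPC2 by 0.72 ± 0.144 (0.000154). The slopes of MUC4 (0.19 ± 0.107, adjusted p = 0.12) and LTF (0.13 ± 0.164, adjusted p = 0.499) did not pass, though that of MUC4 did with no filter on low counts (0.27, adjusted p = 0.0332). The median slope was 1.38 over the 8 genes and 0 over all genes, and that of the 24 squamous markers, of which 21 rose and which made the score, was 1.20. Markers of simple epithelium moved with the score too: 8 of 11 rose and 1 fell, and their summed level, 145 to 15316 CPM in the methionine line and 94.0 to 21698 in the control line, had a Spearman rho of 0.94 with the score over the 20 libraries. The separate parts of squamous and simple epithelium in these slopes were not tested.

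The slopes were smaller without SpermRNA485C and SpermRNA382T, at 1.30 for MUC21, 1.09 for DMBT1, 1.22 for CRISP3, 1.19 for MUC1, 0.88 for PIGR and 0.60 for NPC2. All 6 still passed (adjusted p between 3.77e-05 and 0.0423), and MUC4 was now called as well, at 0.475 ± 0.169 (adjusted p = 0.0226), so that 7 of 8 rose beside 27.3% of all genes. LTF was at -0.05 ± 0.257. Correlations were computed within these 18 libraries, since the score parts the other 2 from them. Pearson's r of log2 CPM with the score was 0.93 for MUC1 (Spearman's rho 0.92), 0.89 for MUC21 (rho 0.90) and 0.85 for DMBT1 (rho 0.88), with permutation p of 1e-05, the smallest the test can give, for the first and the second and 2e-05 for DMBT1. NPC2 had r = 0.66, CRISP3 r = 0.61 and PIGR r = 0.55 (permutation p = 0.00181, 0.00738 and 0.0185), with rho of 0.64, 0.66 and 0.60 (permutation p = 0.00523, 0.00372 and 0.00934). MUC4 stood at r = 0.51 and rho = 0.42 (permutation p = 0.0292 and 0.0884), and LTF at r = -0.18 and rho = -0.15 (permutation p = 0.486 and 0.546). Without SpermRNA413C and SpermRNA468C, the libraries farthest from the median score, r remained 0.92, 0.83, 0.80 and 0.57 for MUC1, MUC21, DMBT1 and CRISP3, while those of PIGR, NPC2 and MUC4 were 0.41, 0.48 and 0.48 in 16 libraries (permutation p = 0.11, 0.0595 and 0.0618). The r of PIGR and NPC2 thus fell from 0.55 and 0.66, and that of MUC4 hardly moved. In all 32 such relations were computed, over 8 genes, 3 scores and the library total.

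**Figure D2:**
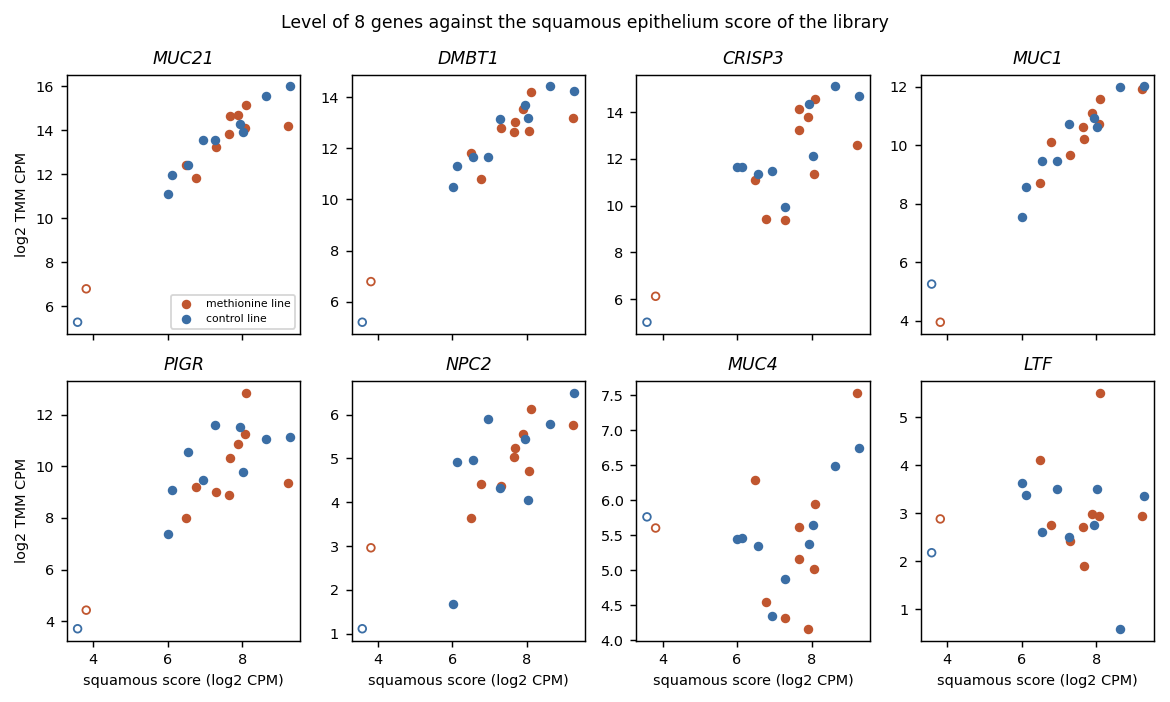
Log2 TMM CPM of each gene against the squamous score of the library (mean log2 TMM CPM of 24 markers), with methionine line rams in orange and control line rams in blue. Open circles are SpermRNA485C and SpermRNA382T. MUC1, MUC21 and DMBT1 follow the score among the 18 filled points (r = 0.93, 0.89 and 0.85), CRISP3 and PIGR scatter more (0.61 and 0.55), and LTF has r = -0.18.

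The library total moved with the score and with the genes. Its Spearman rho was 0.70 with the squamous score, and over the 20 libraries its r with log2 CPM was 0.71 for CRISP3, 0.69 for NPC2, 0.59 for MUC1, 0.58 for MUC21, 0.54 for DMBT1 and 0.53 for PIGR (permutation p between 0.00035 and 0.0157), with rho between 0.60 and 0.84 (permutation p between 2e-05 and 0.00602). These r were 0.47 to 0.76 without the 2 libraries farthest from the median total. In the 18 libraries other than SpermRNA485C and SpermRNA382T they were 0.84 for CRISP3, 0.80 for MUC21, 0.77 for NPC2, 0.72 for DMBT1, 0.68 for MUC1 and 0.57 for PIGR (permutation p between 2e-05 and 0.0144), above the r with the squamous score for CRISP3, NPC2 and PIGR and below it for the other 3, a difference that was not tested. With the log2 library total as a covariate, 6 of 8 genes still rose with the squamous score, beside 21.5% of all genes, with slopes of 1.67 for MUC21, 1.24 for CRISP3 and 0.51 for NPC2. Scaled by library totals without TMM, 5 of 8 rose, beside 10% of all genes, and the slope of NPC2 was 0.45 ± 0.219 (adjusted p = 0.129). That scaling moved the median slope of all genes from 0 to -0.23.

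Spermatid markers ran the other way. On the spermatid score, 6 of 8 genes fell at an adjusted p of at most 0.05, beside 35.2% of all genes. The slope was -1.08 ± 0.319 for MUC21 (adjusted p = 0.00563), -1.13 ± 0.383 for CRISP3 (0.0136), -0.97 ± 0.262 for MUC1 (0.00287) and -0.94 ± 0.299 for DMBT1 (0.00897). PIGR and NPC2 fell by 0.92 and 0.67 per unit (adjusted p = 0.0145 and 0.00102), whereas MUC4 (-0.09, adjusted p = 0.604) and LTF (-0.17, adjusted p = 0.349) did not pass. Pearson's r ran from -0.79 for MUC21 to -0.70 for PIGR among the 6, with Spearman's rho from -0.72 to -0.57 (permutation p between 1e-05 and 0.0103 for both measures), and without SpermRNA485C and SpermRNA359T, the farthest from the median score, r was -0.79 to -0.58. In the 18 libraries other than SpermRNA485C and SpermRNA382T r was -0.72 to -0.47 (permutation p between 0.00095 and 0.048) and rho -0.62 to -0.42 (permutation p between 0.00711 and 0.0863), and PIGR, closest to 0 in both, did not pass by rho. Without SpermRNA485C and SpermRNA382T, MUC21, DMBT1, MUC1 and NPC2 fell still, 4 of 8 beside 22.1% of all genes, and CRISP3 (-0.80, adjusted p = 0.0533) and PIGR (-0.58, adjusted p = 0.0834) no longer passed. With the library total as a covariate 4 of 8 fell as well, beside 27.5%, and CRISP3 and PIGR were again the genes that missed (adjusted p = 0.107 and 0.0867). Of the 20 markers that made the spermatid score, 19 rose with it and 1 fell, beside 27.3% and 35.2% of all genes. Markers of the other cell types moved with the spermatid score as well: 26 of 29 leukocyte, 19 of 24 squamous and 7 of 11 simple epithelium markers fell, and 11, 12 and 6 of them without SpermRNA485C and SpermRNA382T.

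The call on the spermatid score also depended on the filter and the scaling. With no filter on low counts (27658 genes tested) MUC1 and NPC2 fell, 2 of 8 beside 17.5% of all genes, and the other 4 had slopes of -1.10 to -0.95 with adjusted p between 0.0601 and 0.142. By library totals without TMM the median slope of all genes was 0.32 in place of -0.05, and 67.9% of all genes were called in either direction. On that scale MUC21 (-0.48 ± 0.177, adjusted p = 0.0203) and CRISP3 (-0.46 ± 0.197, 0.0430) fell, and MUC4 rose (0.26 ± 0.0916, 0.0151), by less than the median gene. The other 5 genes did not pass, with slopes between -0.36 for DMBT1 and 0.23 for LTF, all below the median of all genes.

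By edgeR 0 of the 8 genes changed with the leukocyte score, beside 23.5% of all genes called in either direction, and 1 of 8 stood at an unadjusted p under 0.05, beside 32.5%. It was MUC4, with a slope of -0.31 ± 0.146 (p = 0.0421, adjusted p = 0.135), and DESeq2 called it (-0.33, adjusted p = 0.0425), 1 of 8 beside 26.1% of all genes. LTF, a main protein of neutrophil secondary granules, had a slope of 0.29 ± 0.157 (adjusted p = 0.216), and CRISP3, which neutrophils store as well, one of -0.10 ± 0.405 (0.912). Of the 29 markers that made the leukocyte score, 23 rose with it, beside 10.2% of all genes. On the squamous score 4 of these 29 rose, beside 31.8%. With the library total as a covariate NPC2 was called (0.38 ± 0.115, adjusted p = 0.0123), beside 32.7% of all genes. With the log2 sum of the leukocyte markers as the score, NPC2 was called as well (0.42 ± 0.158, adjusted p = 0.0382), 1 of 8 beside 36% of all genes. On that score the slope of CRISP3 was 0.77, and those of MUC21, DMBT1 and PIGR were 0.75, 0.73 and 0.75, with adjusted p between 0.0629 and 0.187 for these 4. SpermRNA350C, whose leukocyte markers summed to 31052 CPM, had 10.9 CPM of LTF, and SpermRNA372T, highest in LTF at 44.9 CPM, had a sum of 5328 CPM. Pearson's r of LTF with the score was 0.34 and rho 0.27 (permutation p = 0.136 and 0.251). For MUC21, DMBT1, PIGR and NPC2 r was 0.47 to 0.49 (permutation p between 0.0287 and 0.0346) and rho 0.19 to 0.28 (permutation p between 0.237 and 0.432). Without SpermRNA485C and SpermRNA382T these r lay between -0.03 and 0.22, so the relations rest on those libraries. MUC4 had r = -0.48 and rho = -0.45 (permutation p = 0.0332 and 0.0468), and r = -0.40 (permutation p = 0.101) without the 2 libraries farthest from the median score and r = -0.52 (permutation p = 0.0265) without SpermRNA485C and SpermRNA382T. Leaving out SpermRNA485C and SpermRNA382T, edgeR called 0 of 8 genes, beside 9.25% of all genes, and 1 (MUC4) stood at an unadjusted p under 0.05, beside 22.3%.

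The scores are themselves related, with a Spearman rho of -0.74 between squamous and spermatid, -0.59 between spermatid and leukocyte and 0.19 between squamous and leukocyte over the 20 libraries, and of -0.64, -0.44 and -0.11 in the 18 libraries. With all 3 in the fit, the 6 genes still rose with the squamous score, beside 14% of all genes, with slopes of 1.84 for MUC21, 1.70 for DMBT1, 1.63 for PIGR, 1.52 for MUC1, 1.48 for CRISP3 and 0.62 for NPC2 (adjusted p between 1.08e-05 and 0.046). On the spermatid score 0 of 8 were then called by edgeR, beside 7.27% of all genes, and 0 stood at an unadjusted p under 0.05, beside 15.9%. The slopes of MUC21, DMBT1, MUC1 and PIGR were then above 0, from 0.28 to 0.56. The joint fit called fewer without SpermRNA485C and SpermRNA382T, and MUC1 alone of the 8 was called on the squamous score, at 1.49 ± 0.332 (adjusted p = 0.0154), beside 3.98% of all genes. MUC21 (1.12 ± 0.435, adjusted p = 0.152) and DMBT1 (1.20 ± 0.412, adjusted p = 0.1) kept their direction below the threshold, and CRISP3 was at 0.04 ± 0.696 (adjusted p = 0.978). PIGR was at 0.85 (adjusted p = 0.545), and NPC2, at 0.61 (adjusted p = 0.403), kept its slope and missed the threshold.

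**Figure D3:**
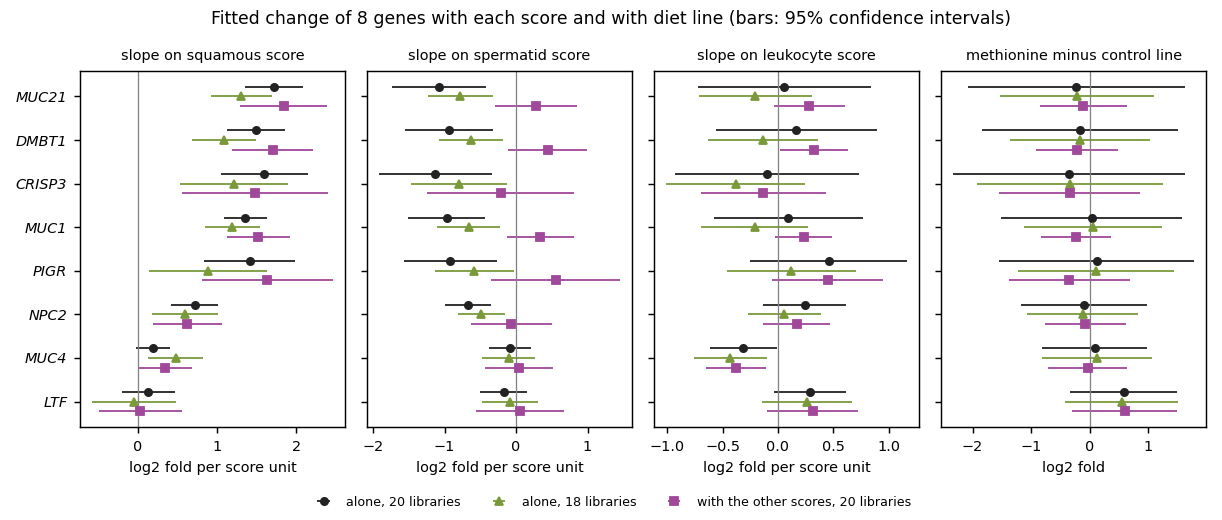
Fitted change of each gene with the squamous, spermatid and leukocyte score (log2 fold per unit of score) and between diet lines (log2 fold, methionine minus control), with 95% confidence intervals. Circles are fits on 1 score or the diet line alone in 20 libraries, triangles the same without SpermRNA485C and SpermRNA382T, and squares fits with the other scores as covariates in 20 libraries. The squamous slopes of MUC21, DMBT1, CRISP3, MUC1, PIGR and NPC2 lie above 0 in all 3, while their spermatid slopes lie below 0 alone and, apart from CRISP3 and NPC2, above 0 in the joint fit.

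Among themselves MUC4 and LTF stood apart from the other genes over the 20 libraries, and from each other. Over the 20 libraries Spearman's rho was 0.95 between MUC21 and DMBT1, 0.93 between DMBT1 and MUC1 and 0.92 between MUC21 and MUC1, and 0.93, 0.90 and 0.89 in the 18 libraries. MUC21 had a rho of 0.86 with CRISP3, 0.81 with NPC2 and 0.78 with PIGR. PIGR and CRISP3 were less alike, at 0.58, and at 0.42 in the 18 libraries. MUC4 had a rho of at most 0.35 with any other member, reached with CRISP3 (0.53 in the 18 libraries), and LTF of at most 0.16, reached with MUC4. Among all genes tested, many lay closer to a member by rho over the 20 libraries than any other member did. The closest other member came at rank 264 for MUC21, 40 for DMBT1 and 103 for MUC1. It came at rank 693 for CRISP3, 354 for PIGR, 827 for NPC2, 1264 for MUC4 and 2431 for LTF. These values describe libraries that share the scaling and differ in total counts, and were not tested.

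In the ratio of a gene to MUC21 in the same library the scaling largely cancels (log2 CPM with a prior count of 2). The log2 ratio of DMBT1 to MUC21 had an SD of 0.51 over the 20 libraries, lowest in SpermRNA350C at -1.89 and highest in SpermRNA382T at -0.01. The ratio of CRISP3 to MUC21 varied more, with an SD of 1.18, and 1.21 without SpermRNA485C and SpermRNA382T. It was -3.86 in SpermRNA426T and 0.57 in SpermRNA413C, and thus was lowest and highest in the 2 libraries with the smallest totals (1082165 and 805831 counts). MUC1 (SD 0.96, and 0.63 without the 2 libraries) and PIGR (1.11 and 1.03) lay between. For NPC2, MUC4 and LTF the SD was 1.68, 2.75 and 2.79, and 0.85, 1.35 and 1.79 without the 2 libraries, where the ratio to MUC21 was highest for each.

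**Figure D4:**
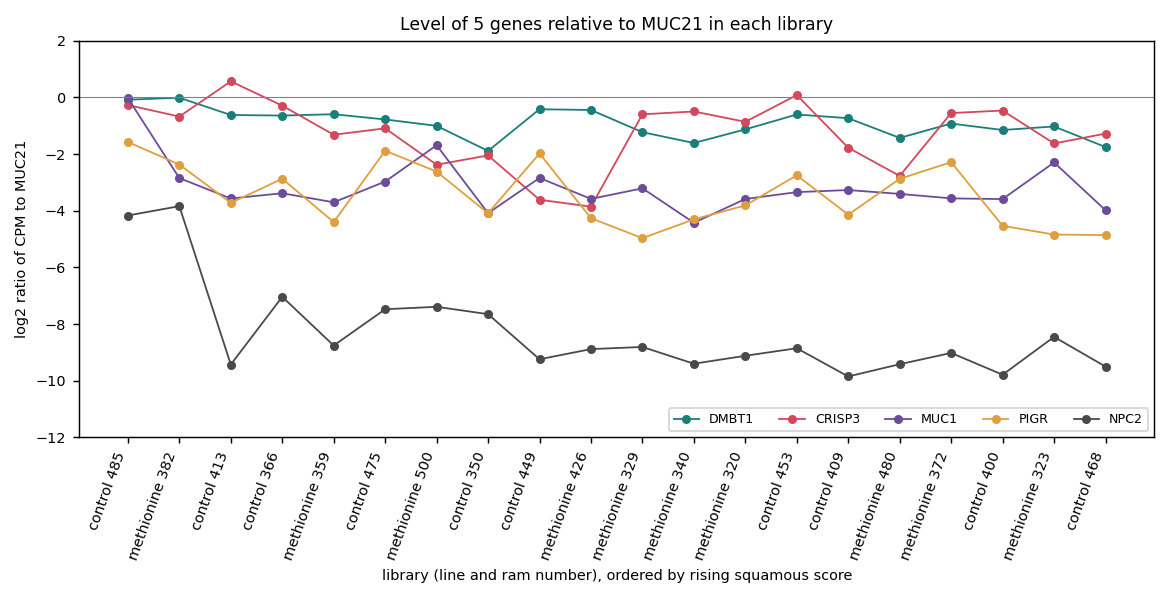
Log2 ratio of the CPM of 5 genes to that of MUC21 in each library, with libraries in order of rising squamous score and lines only joining the points of a gene. Heights of different genes are not comparable, since transcripts differ in length. DMBT1 keeps within -1.89 and -0.01, whereas CRISP3 moves between -3.86 in SpermRNA426T and 0.57 in SpermRNA413C.

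The genes with the most similar pattern over the 20 libraries were found by Spearman's rho among all genes tested, leaving aside symbols of unnamed loci. For MUC21 they were PFKFB4, TJP1 and PLK2 (rho = 0.989, 0.989 and 0.988), and for DMBT1 PFKFB4, MAFF and RAB11FIP1 (0.974, 0.970 and 0.968). CRISP3 was closest to TMPRSS11F, PCYOX1 and PLS3 (0.989, 0.982 and 0.976), and MUC1 to APLP2, RPS2 and RPSA (0.983, 0.977 and 0.974). The nearest for NPC2 were TMCO1, CDC42 and MRCL3 (0.932 to 0.929) and for PIGR TMEM173, FCAMR and ARSJ (0.910, 0.908 and 0.895). MUC4 and LTF had no close match: PLPP1, TTC3 and GOPC reached 0.777 to 0.773 for MUC4, and TNFAIP6, KDR and SRSF10 0.696 to 0.648 for LTF.

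In the gene order of the sheep assembly ARS-UI_Ramb_v3.0, which is not the build the reads were aligned to, FCAMR, a receptor for the Fc part of IgA and IgM, follows PIGR, and FCMR, a receptor for IgM, precedes it. Their rho with PIGR was 0.908 and 0.672. For scale, MUC21, at 0.779 with PIGR, came at rank 354 of all genes tested. MUCL3, the gene after MUC21, had a rho of 0.794 with it, while DMBT1, at 0.949 with MUC21, came at rank 264. CRISP2, next to CRISP3, is a sperm and testis member of the same family and had a rho of -0.33 with it. MUC20, next to MUC4, is another transmembrane mucin, and rho between the pair was 0.31. CCRL2, next to LTF, had a rho of 0.51, and HTRA1, next to DMBT1, one of 0.66. Other neighbours ran against the gene: rho was -0.68 for SYNDIG1L with NPC2, -0.50 for TNK2 with MUC4 and -0.47 and -0.28 for THBS3 and TRIM46 with MUC1. For PGK2 with CRISP3 it was -0.04. Whether neighbours followed a gene more closely than other genes did was not tested.

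Grandsons of the same F0 ram were compared with rams of different F0 sires. The median absolute log2 difference between the 2 grandsons of an F0 ram was 1.97 for MUC21, 1.49 for DMBT1, 1.31 for MUC1 and 3.18 for CRISP3, against 1.74, 1.51, 1.5 and 2.46 between rams of different F0 sires (10 and 180 pairs, a description). It was 1.53 against 1.83 for PIGR, 1.63 against 1.14 for NPC2, 0.849 against 0.850 for MUC4 and 0.633 against 0.737 for LTF. The differences within sires were thus above those between sires for MUC21, CRISP3 and NPC2 and below for MUC1, PIGR and LTF. For DMBT1 and MUC4 they were nearly equal. The 180 pairs between sires include pairs within a line and across the lines. The largest gap for MUC21, DMBT1, CRISP3, MUC1 and PIGR was that of F0 ram 9, whose grandsons were SpermRNA372T and SpermRNA382T, with 8.34 for MUC21 and 8.42 for PIGR. The smallest for MUC21 was 0.36, between the grandsons of F0 ram 23.

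Other genes of mucosal secretion were read from a list of 30, of which 25 had a row and 15 passed the filter. On the squamous score 10 of the 15 rose and 1 fell, beside 31.8% and 31.1% of all genes, with a median slope of 1.04 beside 0. Again 10 rose and 1 fell without SpermRNA485C and SpermRNA382T, beside 27.3% and 25.7%. TCN1, a vitamin B12 binding protein of secretions and neutrophil granules, had the highest median CPM, which transcript length also sets, at 1810 CPM (19.9 to 11492) and rose by 1.64 ± 0.21 per unit (adjusted p = 7.92e-07). LYPD2 rose by 1.55, SPINK5, a protease inhibitor of squamous epithelium, by 1.33, MUC20 by 1.32 and TFF3, a trefoil peptide secreted with mucins, by 1.26, with adjusted p between 2.04e-08 and 6.16e-07. JCHAIN, which joins the polymeric IgA and IgM that PIGR carries, fell by 0.55 ± 0.12 per unit of the squamous score (adjusted p = 0.000265) and rose by 0.69 ± 0.12 per unit of the spermatid score (2.57e-05), with signs opposite to those of PIGR. LCN2, like LTF a protein of neutrophil secondary granules, had a slope of -0.04 ± 0.21 on the leukocyte score (adjusted p = 0.934) and rose by 0.63 on the squamous score (0.000523). MUC6, a gel-forming mucin, had at most 40 counts in a library. On the diet line edgeR called 0 of the 15, beside 0% of all genes, with 0 at an unadjusted p under 0.05, beside 0.766%.

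Of 41 other genes of epididymal and accessory gland fluid, 24 had a row and 11 passed the filter. On the squamous score 8 of 11 rose and 2 fell, beside 31.8% and 31.1% of all genes, with a median slope of 0.80 beside 0. Leaving out SpermRNA485C and SpermRNA382T, 8 rose and 1 fell, beside 27.3% and 25.7%. Those with the highest median CPM were QSOX1, a sulfhydryl oxidase, at 597 CPM (slope 1.35 ± 0.13), PSAP, the precursor of the saposins, at 15.4 to 852 CPM over the libraries (1.03 ± 0.17), TIMP2, a metalloprotease inhibitor, at 256 CPM (0.79 ± 0.16) and ACPP, prostatic acid phosphatase, at 212 CPM (1.46 ± 0.23), all with adjusted p of at most 0.000128. CRISP2, the fifth at 63.4 CPM, fell by 0.51 ± 0.12 per unit of the squamous score (adjusted p = 0.000824) and rose by 0.71 ± 0.12 per unit of the spermatid score (2.35e-05). Without SpermRNA485C and SpermRNA382T the squamous slope of CRISP2 no longer passed (-0.51, adjusted p = 0.0756). Of the epididymal genes below the filter, GPX5 had at most 30 counts in any library, LCN6 15, CES5A 39 and CRISP1 114, while ADAM7 passed it at 1.62 to 31.5 CPM. On the diet line edgeR called 0 of the 11, beside 0% of all genes, with 1 (BSP1) at an unadjusted p under 0.05, beside 0.766%. PSAP, QSOX1 and TIMP2 are expressed in many tissues and CRISP2 in sperm and testis, so that their place in this list does not give their source.

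**Figure D5:**
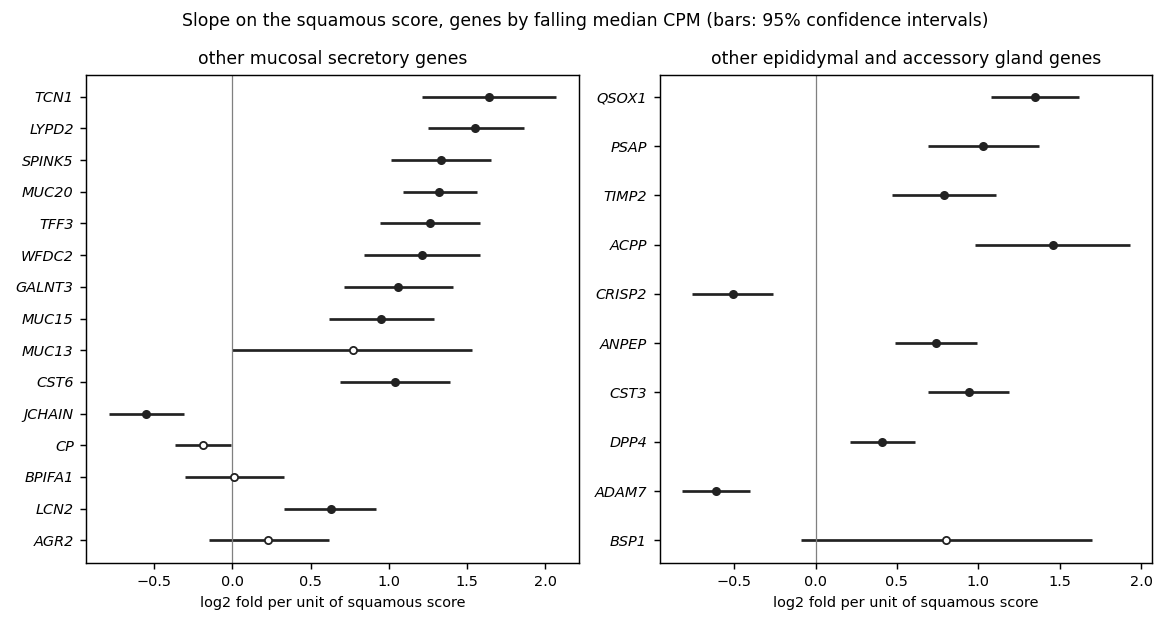
Slope on the squamous score (log2 fold per unit, with 95% confidence intervals, 20 libraries) of 15 other mucosal secretory genes and 10 of the 11 other epididymal and accessory gland genes, from the highest median CPM at the top to the lowest. Filled points passed an adjusted p of 0.05. Most lie above 0, with JCHAIN at -0.55 and CRISP2 and ADAM7 at -0.51 and -0.61 on the other side.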

How the data were processed

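Per the study's methods, the authors trimmed 100-bp single-end reads with Trimmomatic, aligned them to Oar_rambouillet_v1.0 with STAR and counted them per gene; the strand setting is not given in the sources used here. The deposited values are raw counts per gene for the 20 F2 libraries. From these, genes reaching 15 counts in over 10 libraries were kept (the others held 1.79% of counts), normalized with TMM and tested with the quasi-likelihood test of edgeR 4.0.16 (R 4.3.3), with Benjamini-Hochberg adjustment over all genes and a threshold of 0.05. DESeq2 1.42.0 was an alternative. Scores are means of log2 TMM CPM with a prior count of 2. Correlations used two-sided permutation tests with 100000 resamples (NumPy 2.4.6). The fits were also run on simulated counts drawn for each gene on its own, without variation shared between genes or within families. That run does not show how the fits behave under such shared variation. Members, marker lists and tests were chosen with earlier results of these data known. Named genes were all members, the 3 most similar genes of each, and the 5 highest by median of each further list; genes named beyond these, such as chromosome neighbours, JCHAIN, LCN2, MUC6, GPX5, LCN6, CES5A, CRISP1, ADAM7 and BSP1, were chosen after their values were seen. Nothing states that libraries came from separate extractions or days, and p-values measure the spread between these rams. CG methylation at these genes and transcript lengths were not analysed here, so an order of genes by CPM is not one of transcript abundance. A gene of the accessory gland list is not reported here by name.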

Additional observations from a re-analysis of the deposited data

Results flagged for a closer look

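In 8 of 16 groups tested, each of 10 rams of a line for 1 of the 8 genes, the lowest ram stood apart from the next by a gap wider, relative to the group's range in log2 CPM, than Dixon's 95% critical value for 10 samples. Chance gives this in about 1 in 20 groups if log2 CPM is normally distributed, which was not tested, and the genes are not independent of each other. SpermRNA382T stood apart for MUC21 at 111 CPM, with the next ram at 3600, for DMBT1 at 110 CPM and for MUC1 at 15 CPM. SpermRNA485C stood apart for MUC21 at 38.4 CPM, with the next at 2201, for DMBT1 at 36.2 CPM, for CRISP3 at 31.7 CPM and for PIGR at 12.6 CPM. These libraries also had the lowest sums of squamous, leukocyte and simple epithelium markers and the highest of spermatid markers. They are not the smallest libraries, with 1361691 and 2708013 counts. The last was LTF in SpermRNA400C, at 1.01 CPM with the next at 4.03, from 5 counts in a library of 12116455. Its leukocyte score was 3.58, below the median of 4.99 over the 20 libraries, and its leukocyte markers summed to 2918 CPM, above the median of 2294.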

How the results depend on the processing

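With 1 library left out, 687 values kept their direction and their side of the threshold and 33 turned. The called genes stayed at 6 on the squamous score, 6 on the spermatid score, 0 on the leukocyte score and 0 on the diet line. Of all genes, 29.7% to 34.2% then rose with the squamous score and 31.1% to 36.3% fell with the spermatid score. On the leukocyte score 15.7% to 27.5% were called in either direction, and on the diet line 0%. Under the other alternatives 346 values kept both, 44 turned, 34 kept their direction but no longer passed, 7 kept it and newly passed, and 8 counts of called genes were tallied as moved. Other counts of called genes also changed but were not in that tally. On the squamous score they were those with no filter, without TMM and without SpermRNA485C and SpermRNA382T. On the spermatid score they were those without these libraries and with the library total. Leaving out SpermRNA485C and SpermRNA382T, scaling by library totals without TMM and the library total as a covariate were chosen after seeing the data. Where a value changed, the cause was not tested.

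Leaving out 1 library turned estimates that had not passed. On the diet line these ran from -0.449 to 0.245 for MUC21, -0.442 to 0.122 for DMBT1, -0.735 to 0.118 for CRISP3, -0.208 to 0.336 for MUC1, -0.357 to 0.267 for MUC4, -0.0129 to 0.691 for LTF, -0.66 to 0.322 for PIGR and -0.287 to 0.183 for NPC2. They ran from -0.0296 to 0.187 for LTF on the squamous score, -0.347 to 0.0117 for LTF on the spermatid score, and on the leukocyte score from -0.0703 to 0.242 for MUC21, -0.23 to 0.15 for CRISP3 and -0.0517 to 0.292 for MUC1.

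On the diet line, turned estimates were MUC1 -0.236, MUC4 -0.0346 and PIGR -0.345 with the 3 scores as covariates, MUC1 -0.0144 with DESeq2 and with its size factors, MUC1 -0.02 with no filter, NPC2 0.0438 with families summed, MUC21 0.0706, MUC4 -0.0158, NPC2 0.0159 and PIGR -0.167 without TMM, and PIGR -0.346 with the library total. On the squamous score they were LTF -0.168 and MUC4 -0.0796 without TMM, LTF -0.00935 with the library total, and LTF -0.0494 without the 2 rams. With the other 2 scores and without the 2 rams 1 gene was called in place of 6, and LTF was -0.0331.

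On the spermatid score 3 genes were called without TMM (LTF 0.234 and MUC4 0.259 turned), 2 with no filter, and 0 with the other 2 scores, with or without the 2 rams, in place of 6. The last fit, without the 2 rams, called 3.98% of all genes. With the other 2 scores DMBT1 was 0.44, LTF 0.0537, MUC1 0.339, MUC21 0.28, MUC4 0.042 and PIGR 0.555, and without the 2 rams as well DMBT1 was 0.0976, LTF 0.0236, MUC1 0.272 and MUC4 0.226. MUC4 was 0.118 with the library total. On the leukocyte score 1 gene was called in place of 0 by DESeq2 (MUC4), with the summed score (NPC2) and with the library total (NPC2). MUC21 was -0.0659 without TMM, CRISP3 0.0345 with the library total, 0.0722 with no filter and 0.767 with the summed score, and without the 2 rams DMBT1 was -0.136, MUC1 -0.209 and MUC21 -0.204 (-0.0205 with the other 2 scores too).

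For correlations, a prior count of 0.5 gave r = -0.019 for LTF with the library total and 0.451 for MUC1 with the leukocyte score. Without the 2 rams r with the leukocyte score was -0.254 for CRISP3, -0.026 for DMBT1, -0.028 for MUC1, -0.005 for MUC21, 0.219 for NPC2 and 0.054 for PIGR, and r with the library total was -0.025 for LTF and 0.471 for MUC4. Without the 2 libraries farthest from the median score r with the leukocyte score was 0.434 for DMBT1, 0.369 for MUC21, -0.399 for MUC4, 0.271 for NPC2 and 0.417 for PIGR, and with the squamous score 0.476 for MUC4, 0.484 for NPC2 and 0.414 for PIGR. No paired analysis was possible because the labels do not name the twin of each F0 ram and the lines share no replicate numbers. Low counts limit NPC2, LTF and PTGDS most, and the planned CG methylation comparison was not run.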

Other observations

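Among the other genes of epididymal and accessory gland fluid, BSP1, of the binder of sperm family that ruminant seminal vesicles secrete, had the largest difference between lines, chosen here after its values were seen. It lay between 0.378 and 548 CPM with a median of 6.15, and differed by -3.34 ± 0.89 on the log2 scale, methionine minus control (95% interval -5.18 to -1.50), with an adjusted p of 1 by edgeR. Without SpermRNA485C and SpermRNA382T, left out for their low squamous markers, the difference was -3.36. A fit without the library highest in BSP1 is not given here, and whether the difference rests on few libraries was not tested. BSP5, of the same family, did not pass the filter and had 529 of its 732 counts in a single library.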
